A study of Homo sapiens with 4 samples.

Results

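Antisense circular RNAs are circles whose strand is opposite to that of the gene they overlap. They were taken as every circle of the deposited raw count table that the circle caller typed as antisense, that lay outside the mitochondrial genome and that had at least 1 count over the libraries. There were 20173 such circles among 190152 with a count (10.6%), and they held 60889 counts (3.58% of all). The 4 nanopore libraries were made from radiation-resistant cells of MDA-MB-468, an established cell line of human breast cancer, after a total of 50 Gy given in fractions. The 2 control libraries came from cells labelled wild type with a control short hairpin RNA (shCtrl). The other 2 came from cells with a stable knockdown of HNRNPL, a nuclear RNA-binding protein that binds CA-rich RNA and regulates splicing. Labels name 1 hairpin for the knockdown, and do not say whether the cells were a clone or a pool. The comparison asks which circular RNAs depend on HNRNPL. No row named HNRNPL as a gene, so the knockdown rests on the labels.

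Most circular RNAs form when a downstream splice donor is joined back to an upstream splice acceptor of the same transcript, which closes one or more exons into a ring without free ends. Antisense transcripts are known from promoters, from gene ends and from long noncoding RNA genes, many of which are named with the suffix AS. In this assay the strand is not kept by the chemistry, because amplification with phi29 polymerase copies cDNA into double-stranded product. The strand in the table stands beside a splice motif written for that strand, and how the caller assigned it is not given in the sources used here. Without a strand in the reads, an RNA of a gene and one antisense to it cannot be told apart except by that motif.

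The back splice itself carries a sequence when the bases at both of its ends are the same, since the exact join can then slide along them. The table gives this shared stretch for each circle as an equivalent sequence, written along the strand of the circle. Of the antisense circles, 11668 (57.8%) had none, against 27.9% of exon circles. The longest was 17 nt, and 7 circles had one of at least 10 nt. The 6 of these that hold AGGT, an AG acceptor followed by a GT donor, are shown with AGGT in capitals because they are the circles whose join is least fixed by position. Names are those of the gene on the opposite strand.

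HUWE1: aAGGTtaatatacaaaa

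ZNRF1: AGGTctggggtgggg

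HMGXB3: ctgAGGTtctaagac

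CUL9: gAGGTtgcagtgagc

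RPL7L1: AGGTgtgagcca

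WARS2-AS1: attAGGTattt

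HUWE1, ZNRF1 and CUL9 encode ubiquitin ligases or ligase scaffolds, and WARS2-AS1 is an annotated antisense transcript. These circles were rare. Each had between 1 and 3 counts over the 4 libraries, and each was found in 1 library. Over circles of all types on the plus strand, 4657 equivalent sequences held AGGT and 6 held ACCT, its reverse complement. On the minus strand the numbers were 4305 and 7, so the sequences are written for the strand the table gives, as the motif is. The 6 sequences shown were each found, on either strand, in at most 2 of the 35116 RefSeq promoter windows described next.

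A few antisense circles overlapped the promoter window of another gene that the RefSeq table (GRCh38.p14) places on the circle's own strand. Promoter windows of 250 bases before to 50 after the start were taken for this, so an overlapping circle need not reach the start. On their own strand, 62 antisense circles overlapped windows of 54 genes, out of 35116 windows, and 5 windows held at least 2 of them. The window with the most, and the one at a coding gene, are shown with the bases inside antisense circles in capitals. Both were picked after the overlaps had been seen.

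LINC00997, chr7:32758036-32758335, plus strand: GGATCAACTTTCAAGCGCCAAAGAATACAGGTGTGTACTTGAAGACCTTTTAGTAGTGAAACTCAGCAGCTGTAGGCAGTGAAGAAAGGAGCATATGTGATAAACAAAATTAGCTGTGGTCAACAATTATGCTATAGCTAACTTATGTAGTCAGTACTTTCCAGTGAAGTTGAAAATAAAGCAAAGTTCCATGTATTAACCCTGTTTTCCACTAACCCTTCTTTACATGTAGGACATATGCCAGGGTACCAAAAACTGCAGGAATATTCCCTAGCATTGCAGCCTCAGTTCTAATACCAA

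MMUT, chr6:49463204-49463503, minus strand: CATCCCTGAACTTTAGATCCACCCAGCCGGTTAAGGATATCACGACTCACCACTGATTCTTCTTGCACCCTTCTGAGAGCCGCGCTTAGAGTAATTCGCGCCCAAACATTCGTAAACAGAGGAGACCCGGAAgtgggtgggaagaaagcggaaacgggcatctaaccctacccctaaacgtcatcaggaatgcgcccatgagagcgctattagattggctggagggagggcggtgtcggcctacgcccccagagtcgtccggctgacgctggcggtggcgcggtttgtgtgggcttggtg

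LINC00997 is a long noncoding RNA gene that runs opposite to the pseudogene DPY19L1P1, and 7 antisense circles with 22 counts in all covered its whole window. MMUT encodes methylmalonyl-CoA mutase, a mitochondrial enzyme of fatty acid and amino acid breakdown, and starts beside CENPQ on the other strand. The 2 circles there, with 6 and 5 counts, were both found in control replicate 1 alone. Inside them lay 132 bases of the window, all before the start of MMUT. In all, 349 antisense circles (1.73%) lay inside a RefSeq gene on their own strand, so for these the table and RefSeq give different neighbours. RefSeq strands were to hand for 27305 of 59792 genes, which makes that share a lower limit.

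Sampling of antisense circles was shallow, and this shapes what can be tested. Control replicates 1 and 2 held 472428 and 556578 counts, of which 29431 and 14965 were antisense. Knockdown replicates 1 and 2 held 282737 and 390547, of which 6565 and 9928 were antisense. The most abundant antisense circle had 267 counts over all libraries and the median had 2. With exactly 1, 2 and 3 counts there were 3554 (17.6%), 8837 (43.8%) and 3309 (16.4%) circles. At least 10 counts were reached by 552, and the 19621 below that held 85.2% of the antisense counts. Where a library has 0 counts of a circle, up to 3 remain possible, or 0.635, 0.539, 1.06 and 0.768 per 100000 in that order. Amplified reads carry no molecular identifiers, so these limits and all intervals cover counting error only.

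Markers of the cell line were checked on circles of the genes' own strand. EGFR, which is amplified in this line, had 200 counts, and CDH1, which encodes E-cadherin, had 25. The keratin genes KRT5 and KRT7 had 2 and 3 counts, and KRT8, KRT18 and KRT19 had 0. RB1, which is lost in this line, had 0, and SMAD4 had 2. The 7 leukocyte, fibroblast and endothelial markers had 0 counts on either strand.

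The libraries stood apart in ways the groups do not describe. Control replicate 1 had 6.23% of its counts in antisense circles (95% Wilson interval 6.16 to 6.30), control replicate 2 had 2.69% (2.65 to 2.73), and the knockdown replicates had 2.32% (2.27 to 2.38) and 2.54% (2.49 to 2.59). One control library was thus far above the other, which lay close to both knockdown libraries. The knockdown libraries held largely the same rare antisense circles. They shared 2859, which is 72.8% of those in knockdown replicate 1 and 57.0% of those in replicate 2. The control libraries shared 244, or 2.36% and 5.35%, and the pairs of a control with a knockdown library shared between 184 and 319. High sharing between the knockdown libraries was not particular to antisense circles. That pair shared 71.2% and 60.5% of exon circles, 68.6% and 56.3% of intron circles, and 66.3% and 55.5% of intergenic circles. The control pair shared 47.7% and 53.8% of exon, 14.1% and 27.8% of intron, and 7.35% and 18.8% of intergenic circles. In both knockdown libraries and neither control there were 2696 antisense circles, against 118 in both controls and neither knockdown. Circles of other types were not counted in this way, so these numbers say nothing particular to antisense circles. Whether the knockdown libraries share cDNA, amplified product or cells was not tested, and where they do, their spread measures technical error and p-values are too small. Counts of the knockdown pair were compared over 69 antisense circles with at least 10 counts in the pair. The mean chi-square was 1.32 per circle (p = 0.0318 on the reads of these libraries). Over the 61 of these made of 1 continuous stretch of genome it was 1.24 (chi-square test on reads, p = 0.0811). These p-values take amplified reads as independent, so they cannot decide whether the pair differs beyond counting error or shares material. The control pair gave 12.6 per circle. There, 292 and 112 circles had at least 10 counts, all in control replicate 1 or all in control replicate 2, which raises that value.

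**Figure D1:**
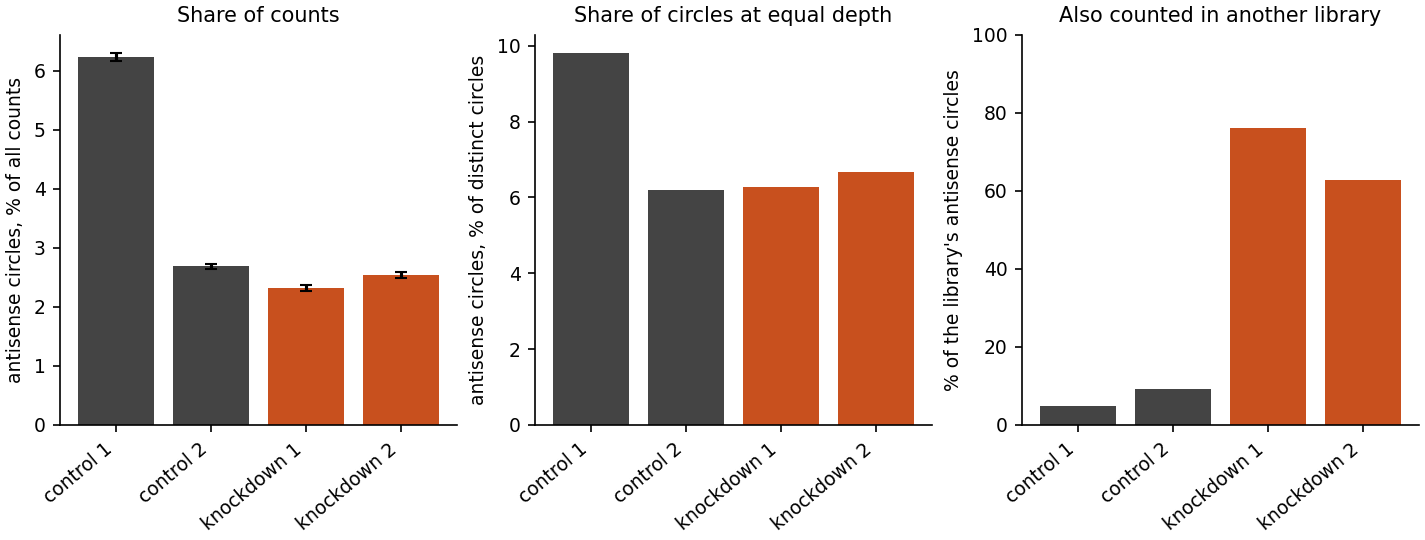
Antisense circles in each library: share of counts with 95% Wilson intervals (left), share of distinct circles at 282737 counts per library (centre), and share of the library's antisense circles that were also counted in another library (right). Control 1 stands highest at 6.23% of counts and 9.80% of circles, while 4.96% and 9.32% of the control libraries' antisense circles, but 76.1% and 62.7% of the knockdown libraries', were seen elsewhere.

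Recurrence set antisense circles apart from exon circles. Among circles with 10 to 19 counts over the libraries, 357 of 464 antisense circles (76.9%) had all of them in 1 library. That share was 7.57% of 8759 exon circles, 49.3% of 1988 intron circles and 52.3% of 88 intergenic circles. Over circles of any count the intergenic type was close to the antisense type, with 79.5% in 1 library against 83.2%. The share seen in another library differed between them by -6.82 percentage points ± 9.16 (SD, n = 4 libraries), and antisense was higher in 1 of 4 (exact paired permutation test, two-sided, p = 0.25). Of the 552 antisense circles with at least 10 counts, 404 (73.2%) were confined to 1 library, with 292 of them to control replicate 1, 112 to the other control and 0 to either knockdown library. An example is the antisense circle opposite NTN1, the gene of the secreted guidance cue netrin-1, which had 74 counts in control replicate 1 and 0 in the other libraries. In all 4 libraries there were 71 antisense circles, which held 2162 counts.

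**Figure D2:**
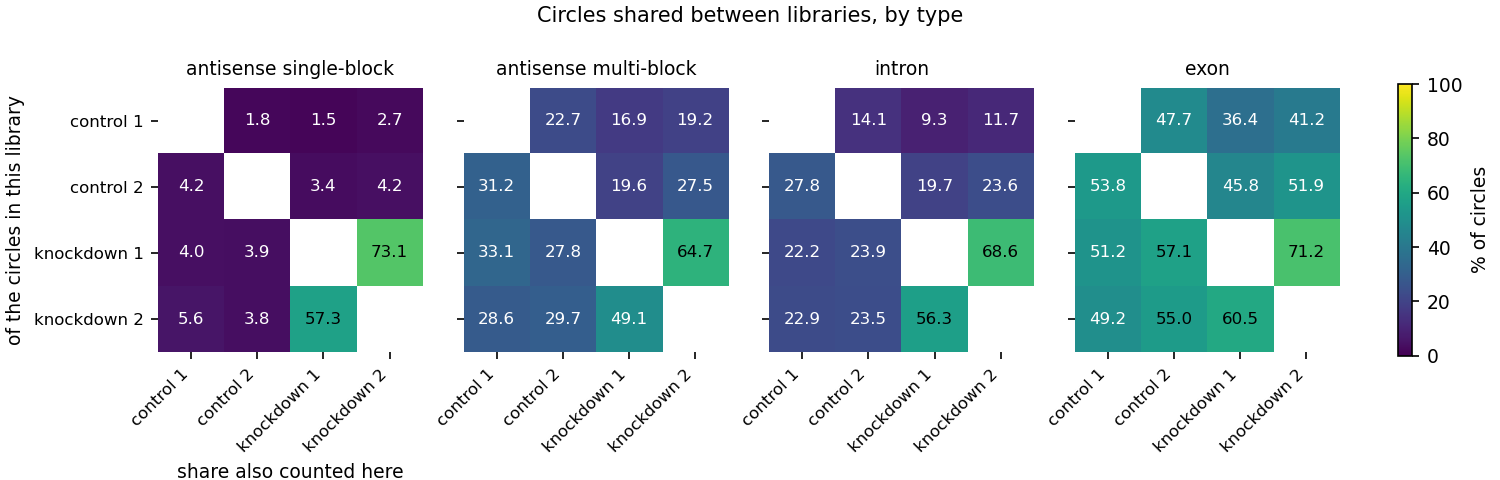
Share of the circles in the library of each row that were also counted in the library of each column, for 4 kinds of circle. Among antisense circles of a single block the knockdown pair shared 73.1% and 57.3%, and every other pair under 6%, while exon circles were shared at 36.4% or more in each pair.

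The structure of antisense circles was unlike that of exon circles. A block is a continuous stretch of genome in a circle, so a circle of several blocks has internal splices. One block made up 19658 antisense circles (97.4%), and 515 had several blocks, up to 13. A single block made up 15.4% of exon, 67.6% of intron and 86.2% of intergenic circles. Within each library the antisense share lay between 95.9% and 97.5%, and the exon share between 8.16% and 14.5%. The difference averaged 85.2 percentage points ± 1.98 (SD, n = 4 libraries), with antisense higher in 4 of 4 (exact paired permutation test, two-sided, p = 0.13, the smallest possible, adjusted p = 0.147 over 20 comparisons).

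Only 4 kinds of splice motif were given at the back splice, all of them known splice site pairs. Which motifs the caller is able to report is not given in the sources used here. That only known pairs occur therefore does not show that the ends are true splice sites. AG-GT, the acceptor and donor of the major spliceosome, was given for 15791 antisense circles (78.3%). The variants AG-AT and AG-GC were given for 2024 (10.0%) and 731 (3.62%). AC-AT, the pair of a class of minor introns, was given for 1627 (8.07%). Exon circles had AG-GT in 90.1%, intron circles in 77.4% and intergenic circles in 75.2%. Every antisense motif carried a star in the table, as did 41.6% of exon and 95.7% of intron motifs. What the star marks is not given in the sources used here.

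Beside each motif the table prints a pair of offsets in nt, which were read here as distances between the called ends and the motif. Both offsets were within 1 nt in 975 antisense circles (4.83%), against 67.2% of exon, 31.4% of intron and 15.2% of intergenic circles. Offsets ran from -16 to 22 nt, with a median size of 4 nt. Within a library, between 4.82% and 5.91% of antisense circles and between 66.9% and 85.6% of exon circles were this close (exact paired permutation test, p = 0.13, adjusted p = 0.147). The motif given for antisense circles thus lay near their ends but seldom at them. How often such a motif lies as near to other positions of the genome was not tested.

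Length did not separate the types as clearly. Antisense circles had a median of 1374 nt, with the 10th and 90th percentiles at 679 and 3066 nt and a range of 73 to 13245 nt. The medians were 1248 nt for exon, 1561 nt for intron and 1456 nt for intergenic circles. Antisense circles were longer than exon circles in 4 of 4 libraries, by 148 nt ± 49.0 (SD), and shorter than intron circles in 4 of 4, with a difference of -176 nt ± 48.7 (SD). Both tests gave p = 0.13 by exact paired permutation, adjusted p = 0.147. Neither difference can pass 0.05 with 4 libraries.

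Neighbouring antisense circles mostly did not repeat each other. Merged by overlap they formed 15411 regions, and 7081 (35.1%) overlapped another antisense circle. An exact end was shared by 608 (3.01%). Of the circles with several blocks 19.6% shared an end, against 2.58% of those with 1 block. No antisense circle had a circle of the opposite strand with both ends within 10 nt, and 682 (3.38%) had one within 100 nt. The table holds 1 row per position, so an exact mirror on both strands could not be listed.

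Genes on the opposite strand were named for every antisense circle. A single gene was named for 18631 and several genes for 1542. A single protein-coding gene was named by 17373 (86.1%) and a single long noncoding RNA gene by 1163 (5.77%). No base lay in a block of an exon circle on the opposite strand for 14679 (72.8%), while 2212 (10.97%) lay wholly inside such blocks. Of the circles naming 1 gene, 14835 (79.6%) could be placed on a RefSeq gene with a known strand.

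Antisense circles were concentrated at the downstream ends of genes. Their midpoints fell in the last 10% of the gene for 3317 (22.4%), and in the first 10% for 9.28%, with between 8.00% and 9.77% in each of the other 10% bins. Exon circles had 13.8% in the last bin and 1.49% in the first. Intron circles had 7.21% and 8.65%. Across libraries the antisense share in the last 10% lay between 20.9% and 29.3%, above exon circles by 14.8 percentage points ± 4.88 (SD, n = 4) and above intron circles by 17.9 ± 4.08 (SD, n = 4). Antisense was higher in 4 of 4 libraries in both cases (exact paired permutation test, p = 0.13, adjusted p = 0.147). Single-block and multi-block antisense circles had 22.4% and 22.5% there.

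**Figure D3:**
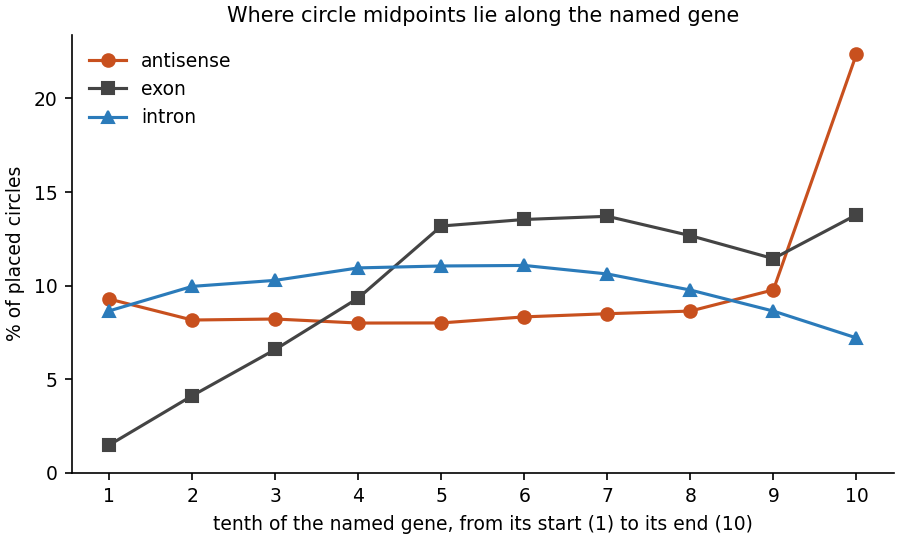
Share of placed circles whose midpoint lies in each of 10 equal bins of the named gene, from the gene's start to its end, for antisense, exon and intron circles over all 4 libraries. Antisense circles lie between 8.00% and 9.77% in the bins before the last and at 22.4% in the last, where exon circles have 13.8% and intron circles 7.21%.

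This position differed between the groups without overlap. The last 10% held 21.4% and 20.9% of the antisense circles of the control libraries and 27.9% and 29.3% of those of the knockdown libraries. Controls averaged 21.1% ± 0.378 (SD, n = 2) and knockdowns 28.6% ± 0.971 (SD, n = 2), which is 7.47 percentage points higher (exact permutation test, two-sided, p = 0.333, the smallest 2 against 2 can give, adjusted p = 0.8 over 12 measures). Exon circles had 12.9% and 7.55% in control and 9.56% and 10.3% in knockdown libraries, which overlap. The knockdown libraries shared most of their antisense circles, so their values are not separate draws of circles, and the part this plays in the difference was not tested.

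The amount of antisense RNA differed mainly by control replicate 1. Control libraries had 4.46% ± 2.50 (SD, n = 2) of counts in antisense circles and knockdown libraries 2.43% ± 0.156 (SD, n = 2). The groups did not overlap, and the difference was -2.03 percentage points (exact permutation test, p = 0.333, adjusted p = 0.8). Without control replicate 1 it was -0.26. At an equal depth of 282737 counts, 8318 and 3740 distinct antisense circles would be found in the control libraries and 3928 and 4269 in the knockdown libraries. As a share of all circles found at that depth this was 9.80% and 6.20% against 6.28% and 6.67%, a difference of -1.53 points that turned to 0.27 without control replicate 1 (exact permutation test with all libraries, p = 1).

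Of 4 further features, 2 overlapped between the groups and 2 did not, and none could pass the test at this size. The count-weighted median length was 1566 and 1313 nt in controls and 1484 and 1376 nt in knockdowns, which overlap (exact permutation test, p = 1). AG-GT took 78.0% and 79.1% of antisense counts in controls and 79.3% in both knockdowns, a difference of 0.77 points (exact permutation test, p = 0.333, adjusted p = 0.8). These ranges do not overlap. Single-block circles took 97.4% and 94.5% against 95.1% and 95.2%, which overlap. Detected antisense circles had 2.84 and 3.28 counts on average in controls and 1.67 and 1.98 in knockdowns. Means were 3.06 ± 0.310 and 1.83 ± 0.219 (SD, n = 2), without overlap (exact permutation test, p = 0.333, the smallest possible, adjusted p = 0.8).

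Circles with internal splices and exact ends were a small set within the antisense type. Several blocks and both offsets within 1 nt were found together in 163 antisense circles with 1067 counts, a definition chosen after the structures had been seen. All 163 had AG-GT. More than 1 library held 89 of them (54.6%), and 11 were in all 4. A long noncoding RNA gene was named, alone or first among several, by 35.6%. The 5.77% of all antisense circles counts only those naming a single gene, so these shares cannot be compared. Their level was 68.8 and 70.8 counts per 100000 in the control libraries and 49.2 and 53.5 in the knockdown libraries, so control replicate 1 did not stand apart. Much of this level came from the chromosome 5 locus described next, which held 21 of the 163, among them those with 267 and 113 counts. All antisense circles of that locus stood at 37.0 and 41.1 per 100000 in controls and 19.5 and 20.7 in knockdowns. The difference between the groups was not taken without that locus, and need not hold for the other circles. Single-block antisense circles with offsets beyond 1 nt were at 5829 counts per 100000 in control replicate 1, at 2429 in the other control library, and at 2113 and 2309 with the knockdown. The excess of control replicate 1 in antisense counts was therefore carried by the unspliced circles off the motif. Control replicate 1 also had 19.7% of its counts in intron circles, against 9.93% to 10.6% elsewhere.

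The strongest antisense locus was a spliced one on chromosome 5. It lies opposite ENSG00000253693, a long noncoding RNA gene, and comprised 40 antisense circles on the minus strand between 165500279 and 165737125 (GRCh38) with 540 counts. Several blocks were present in 23 of them, which held 494 counts, and 21 of these had both offsets within 1 nt. The gene's own strand had 22 circles and 53 counts. Recurrent blocks built the circles: the block of 71 nt at chr5:165616769-165616839 was in 15 circles and the block of 460 nt at chr5:165610531-165610990 in 8. The block of 476 nt at chr5:165609642-165610117 and the block of 799 nt at chr5:165610192-165610990 were each in 10.

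**Figure D4:**
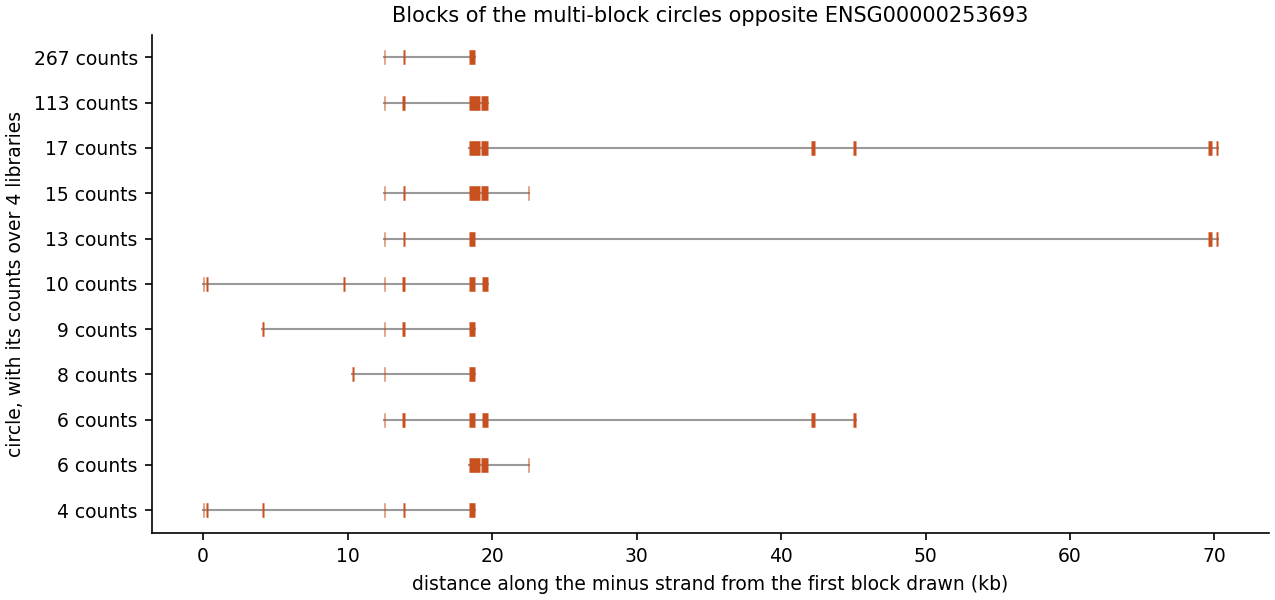
Blocks (orange) of the 11 multi-block antisense circles with the most counts opposite ENSG00000253693, by distance along the minus strand in kb, with grey lines joining the blocks of a circle. The circles of 267 and 113 counts and most of the others reuse the same blocks in different combinations; the blocks of those 2 circles lie between 12.5 and 19.7 kb from the first block drawn.

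Its leading circle, chr5:165610531-165616839, had 68 and 134 control counts against 34 and 31 knockdown counts, with 3 blocks, 627 nt and offsets of 1 nt. Per 100000 this was 14.4 and 24.1 against 12.03 and 7.94. The knockdown libraries were lower without overlap, by 0.97 ± 0.39 (SE) on the log2 scale (edgeR adjusted p = 0.355). The next, chr5:165609642-165616839, also over the small RNA pseudogene RN7SKP60, had 39 and 45 counts against 12 and 17. All circles of the locus together stood at 37.0 and 41.1 counts per 100000 in controls and 19.5 and 20.7 in knockdowns. The means were 39.1 ± 2.90 and 20.1 ± 0.910 (SD, n = 2), without overlap (exact permutation test, p = 0.333, the smallest possible). Circles naming the gene alone, 25 with 343 counts, gave a log2 difference of -0.59 ± 0.42 (SE) in the locus fit (edgeR adjusted p = 0.523). That value rested on the control library used: it was -0.96 without control replicate 1 (edgeR adjusted p = 0.00113) and -0.0075 without control replicate 2 (edgeR adjusted p = 0.987).

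CYP1B1-AS1, a gene annotated as antisense to the cytochrome gene CYP1B1, was opposed by the next spliced circles by counts. The circle chr2:38151749-38187078 had 32 and 5 control counts against 7 and 4 knockdown counts, and chr2:38170552-38175088 had 14 and 4 against 7 and 6. Groups overlapped for both. A spliced circle of the minus strand opposite CDC42SE2, which encodes a small effector of the GTPase CDC42, had 6 blocks and 13 counts, at 1 and 3 in controls and 2 and 7 in knockdowns.

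Single antisense circles were tested in one edgeR fit with all circles of at least 10 counts. Of 552 antisense circles, 0 passed an adjusted p of 0.05, as did 0% of the 21576 circles of all types. The smallest adjusted p of an antisense circle was 0.0924. At an unadjusted p under 0.05, 43 were higher in the knockdowns (all types: 9.42%) and 6 lower (all types: 4%). The groups did not overlap for 58 higher (all types: 23.2%) and 34 lower (all types: 22.9%). DESeq2 gave an adjusted p to 97 antisense circles and called 12 (12.4%), 11 higher and 1 lower, against 10.5% of the 10311 circles of all types that had one. A circle with all its counts in one library reached the minimum through that library alone, which was so for most of the 552: 414 had no count in the knockdowns and 36 none in the controls. The 102 with counts in both groups had a median log2 difference of -0.64, against -0.18 over 18359 such circles of all types. The direction depends on which circles are taken: the median was 0.18 over the 148 antisense circles found in more than 1 library, and -0.35 with groups of no count set at their bound.

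Abundant antisense circles opposite coding genes had differences of either sign, and none passed in the edgeR fit above. The circle opposite PPP2R3A, a regulatory subunit gene of protein phosphatase 2A, spanned chr3:136001398-136055169 in 3 blocks and had 16 and 75 control counts against 64 and 84 knockdown counts. Per 100000 that was 3.39 and 13.5 against 22.6 and 21.5, higher in both knockdown libraries by 1.43 ± 0.54 (SE) in log2 (edgeR adjusted p = 0.334). Without control replicate 1 the difference was 0.91, and without control replicate 2 it was 2.46. With same-numbered libraries treated as blocks it was 1.59 (edgeR adjusted p = 0.0373). Its offsets of -14 and -15 nt were among the widest. CD24, the gene of a small glycosylated surface protein, had an antisense circle at chr6:106969912-106971550 with 61 and 48 counts against 18 and 38, and the groups overlapped per 100000. Opposite ASPH, which encodes an aspartyl hydroxylase, chr8:61624927-61625839 had 49 and 41 counts against 15 and 21. Opposite ZFC3H1, a component of a nuclear RNA decay pathway, chr12:71657998-71660429 had 19 and 29 against 6 and 8. QSER1, whose product acts at DNA methylation valleys, showed the reach of 1 library: its antisense circle had 46, 3, 1 and 1 counts.

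The circles with the smallest p among those higher in the knockdowns were nearly unseen in the controls. Opposite TTC17, which encodes a protein of tetratricopeptide repeats, chr11:43466905-43468235 had 1 and 1 control counts against 11 and 24 knockdown counts, a log2 difference of 4.49 ± 0.75 (SE) (edgeR adjusted p = 0.0924). Opposite SLC38A2, an amino acid transporter gene, chr12:46360052-46360682 had 1 and 0 against 15 and 28. Opposite YWHAZ, whose product binds phosphorylated partner proteins, chr8:100919524-100920383 had 0 and 1 against 12 and 41. For NR6A1, an orphan nuclear receptor gene, and AMD1, whose enzyme supplies the aminopropyl donor of polyamine synthesis, both controls had 0 counts. The NR6A1 circle had 11 and 21 counts in the knockdowns, at least 7.89-fold higher, and the AMD1 circle had 11 and 14, at least 6.37-fold higher, against a limit of 3 counts per library. All these circles passed the minimum of 10 counts only through the knockdown libraries, and they were picked by p in the same data. Their p-values and fold limits describe the picked circles and are no separate support for a change.

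On the lower side the smallest p belonged to a circle opposite TXNRD1, the gene of a selenium-containing reductase that keeps thioredoxin reduced. It lay at chr12:104348816-104350036, in the last percent of the gene, had an AC-AT motif, and had 19 and 79 control counts against 3 and 3 knockdown counts. Its log2 difference was -3.25 ± 0.70 (SE) (edgeR adjusted p = 0.133). Opposite HP1BP3, a heterochromatin protein gene, and GM2A, a cofactor gene of ganglioside breakdown, both knockdown libraries had 0 counts. Control counts were 15 and 4 for HP1BP3, at least 2.13-fold, and 13 and 5 for GM2A, at least 1.99-fold. Opposite MEX3C, which encodes an RNA-binding ubiquitin ligase, counts were 9 and 30 in controls and 4 and 1 in knockdowns. These circles passed the minimum of 10 counts only through the controls and were likewise picked by p, so the same limit holds.

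Antisense circles were next summed over the gene they oppose, and fitted with edgeR beside the summed circles of each gene's own strand. In all, 5508 genes had an antisense circle naming that gene alone, and 592 of them (10.7%) had no circle of their own strand. Antisense counts were 4.16 per 100 own-strand counts, and by library 7.57, 3.12, 2.62 and 2.89. Circles at 1 locus numbered 1 for 2273 genes and 10 or more for 349. Of the 1734 antisense loci with at least 10 counts, 142 (8.19%) had more counts than the gene's own strand.

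Genes with the most distinct antisense circles also had many circles of their own strand, between 106 and 188 each. NEAT1, the noncoding RNA that scaffolds paraspeckles, had 73 antisense circles with 101 and 28 control counts against 24 and 27 knockdown counts. CD44, the hyaluronan receptor gene, had 67 with 66 and 60 against 30 and 42. EFNA5, an ephrin gene, had 54 with 45 and 40 against 18 and 27. TRPS1, a gene of a GATA-type repressor of breast epithelium, had 53 with 36 and 46 against 24 and 35. PATJ, a cell polarity scaffold gene, had 44 with 65 and 41 against 6 and 18. Of these 5, none passed (edgeR adjusted p between 0.349 and 0.982), and directions for CD44 and EFNA5 turn under library-size scaling, to -0.26 and -0.38 in log2. No circle in the NEAT1 set had more than 9 counts, so its sum came from many rare circles.

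At 5 of the 1734 antisense loci the adjusted p was under 0.05, 4 higher in the knockdowns (background 0.798% of 7647 features higher) and 1 lower (background 0.0262%), with 0.824% of all features called in either direction. Library-size scaling gave 1 higher and 1 lower (background 0.824% in either direction). At an unadjusted p under 0.05, 50 were higher (background 6.88%) and 125 lower (background 6.53%). Groups did not overlap for 179 higher (background 14.6%) and 588 lower (background 35.6%). The 1347 antisense loci with counts in both groups had a median log2 difference of -0.45, against -0.16 for 5530 own-strand genes and -0.19 for all features. Library-size scaling moved those medians to -0.87, -0.57 and -0.61, so the distance between the strands was about as large under it. The antisense median depended on control replicate 1, however. Over all 1734 antisense loci it was -0.85 with every library and 0 without control replicate 1, where features counted in that library alone stand at 0.

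Of the loci called higher, YWHAZ had the smallest adjusted p. Its 16 antisense circles had 4 and 5 control counts against 27 and 74 knockdown counts. Per 100000 that was 0.847 and 0.898 against 9.55 and 18.9, a log2 difference of 4.33 ± 0.57 (SE) (edgeR adjusted p = 0.0139). Both knockdown libraries were far above both controls. All 16 were single-block, 8 were in both knockdown libraries and 7 of those in no control. Circles of the gene's own strand had 178 and 143 against 49 and 77 counts, and per 100000 they were lower in the knockdown libraries without overlap. Their log2 difference of -0.40 ± 0.37 (SE) did not pass (edgeR adjusted p = 0.661).

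SERBP1, whose product binds messenger RNA and ribosomes, had 9 antisense circles with 0 and 1 control counts against 13 and 28 knockdown counts. The log2 difference was 5.86 ± 1.01 (SE) (edgeR adjusted p = 0.0350). They lay close together, between 67409580 and 67413126 on chromosome 1, and 1 had a count in a control. Own-strand circles stood at 50 and 24 against 38 and 63 counts, and per 100000 they were higher in the knockdown libraries without overlap (log2 difference 1.41, edgeR adjusted p = 0.202).

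WDR26, a subunit gene of a large ubiquitin ligase, was the one of these loci where the own strand passed the test too. Its 7 antisense circles had 2 and 2 counts against 21 and 19, a log2 difference of 4.21 ± 0.76 (SE) (edgeR adjusted p = 0.0402). The leading circle, chr1:224386339-224387878, had 0 and 2 control counts against 11 and 15 knockdown counts. Own-strand circles had 71 and 73 control counts against 131 and 211 knockdown counts, higher by 2.18 ± 0.40 (SE) in log2 (edgeR adjusted p = 0.0402). The difference between the strands was not tested.

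AMD1 had 14 antisense circles with 6 and 5 control counts against 21 and 27 knockdown counts, a log2 difference of 3.06 ± 0.60 (SE) (edgeR adjusted p = 0.0497). In the last 10% of the gene lay 11 of the 14. Of the circles, 7 were in both knockdown libraries and no control, 3 were in controls alone, and 1 was in a control and a knockdown library. Own-strand circles had 98 and 76 counts against 63 and 89, and per 100000 they too were higher in the knockdown libraries without overlap (log2 difference 0.77, edgeR adjusted p = 0.401).

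TXNRD1 was the locus called lower. Its 14 antisense circles had 45 and 96 control counts against 3 and 5 knockdown counts, or 9.53 and 17.2 per 100000 against 1.06 and 1.28, a log2 difference of -3.19 ± 0.63 (SE) (edgeR adjusted p = 0.0498). The circle named above made up 104 of the 149 counts. Of the others, 12 were in controls alone. Own-strand circles had 233 and 145 counts against 45 and 61, and per 100000 they too were lower in the knockdown libraries without overlap (log2 difference -0.86, edgeR adjusted p = 0.376).

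**Figure D5:**
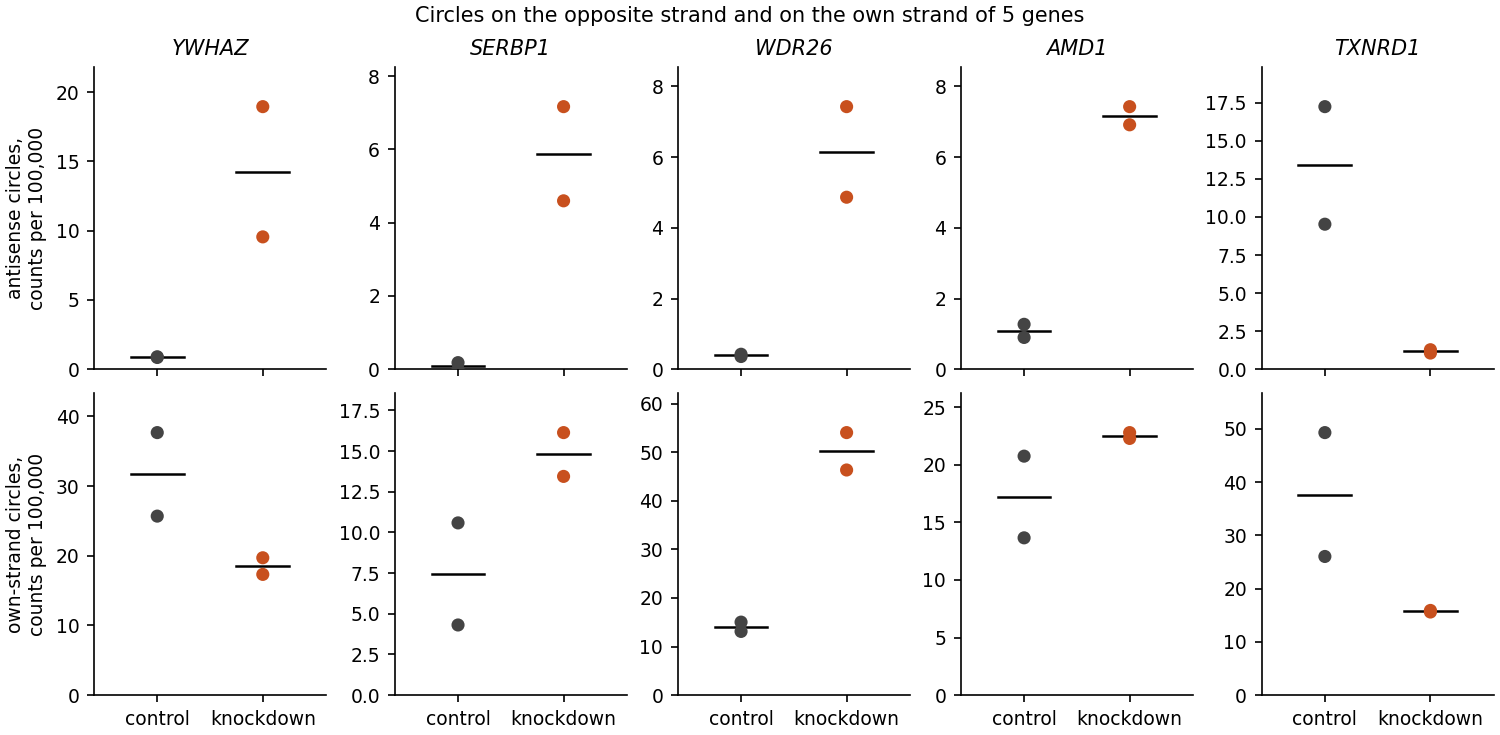
Counts per 100000 in each library (points) and group means (lines, n = 2) at the 5 loci, for antisense circles (top) and circles of the gene's own strand (bottom), each panel from 0 on its own scale. Antisense points do not overlap between the groups at any of the 5. Own-strand points do not overlap either, and with the knockdown are higher at SERBP1, WDR26 and AMD1 and lower at YWHAZ and TXNRD1. Of these, WDR26 passed the test on that strand (edgeR adjusted p = 0.0402).

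These calls rested on few counts and few libraries. YWHAZ, SERBP1 and WDR26 had 9, 1 and 4 control counts, and TXNRD1 had 8 knockdown counts. Each of those loci thus passed the minimum of 10 counts only through the group where it was high. AMD1 had 11 control counts and 48 knockdown counts. Without knockdown replicate 2, 0 antisense loci were called (background 0.235%), and without knockdown replicate 1, YWHAZ and SERBP1 were (background 0.549%). All 5 kept their direction with either knockdown library left out. Without knockdown replicate 2 they were 3.74 for YWHAZ, 5.51 for SERBP1, 4.50 for WDR26, 3.11 for AMD1 and -3.34 for TXNRD1. In such a fit the lone knockdown library is assumed to vary as the controls do. With the knockdown libraries summed as 1 sample, YWHAZ and SERBP1 kept an adjusted p under 0.05 in edgeR, at 0.000436 and 0.0253, while WDR26, AMD1 and TXNRD1 did not, at 0.162, 0.282 and 0.128. Leaving out control replicate 1 gave 280 called antisense loci (background 20% of all features), and leaving out control replicate 2 gave 496 (background 33.8%), since the spread then comes from the knockdown pair alone. TXNRD1 was at -3.66 without control replicate 1 and -2.35 without control replicate 2, and SERBP1 at 5.00 and 7.82.

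Genes of 4 lists were looked up among the antisense loci. Of 22 hosts of widely studied circular RNAs, 20 had antisense circles, 194 circles with 553 counts against 49258 own-strand counts. Of these, 13 were tested, 0 were called and 1 had an unadjusted p under 0.05 (edgeR), with a median log2 difference of 0.18. That 1 was FOXO3, a forkhead factor gene, whose 19 antisense circles had 34 and 17 control counts against 1 and 1 knockdown counts (edgeR adjusted p = 0.133). HIPK3, host of an abundant exon circle with 13039 own-strand counts in all its circles, had 48 antisense counts.

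Natural antisense pairs and annotated antisense genes had antisense circles at 4.38 and 5.12 counts per 100 own-strand counts, near the 4.16 of all genes. Of 20 genes with well known antisense partners, 5 had antisense circles, with 32 counts in all. IGF2R, the gene opposed by an imprinted antisense RNA, held 23 of these, at 16 and 2 in controls and 3 and 2 in knockdowns. It was the 1 member tested, and it was not called (edgeR adjusted p = 0.838). Of 384 annotated AS genes with own-strand circles, 74 had antisense circles and 13 were tested, with 0 called and 0 at an unadjusted p under 0.05 (edgeR). Of 8 genes of breast epithelium or long nuclear RNA, 3 had antisense circles, 113 in all. EGFR, a receptor kinase gene, had 38 of these with 54 and 33 control counts against 8 and 10 knockdown counts, a log2 difference of -1.29 ± 0.53 (SE) (edgeR adjusted p = 0.330), while its own-strand circles had 115 and 52 counts against 12 and 21.

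Position along the gene was set beside the direction of the loci. At loci with an unadjusted p under 0.05 and higher in the knockdowns, 37.5% of 256 placed antisense circles lay in the last 10% of the gene. At loci lower in the knockdowns the share was 21.0% of 961, and over all tested loci 24.4% of 10125. Circles of a locus share libraries, so no test was made of this.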

How the data were processed

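Circles were counted by the authors with CIRI-long, named in each row per the file headers, and the deposited counts are whole numbers that were not normalized. The deposited circle length in nt, type, strand, motif and blocks (a measure of other kind than counts) were used as given. The submitters' processing notes name GRCh38.p14 and DESeq2, with no role, and positions are those of the table. Another deposited table of scaled values was not used. Left out were 4210 antisense rows at 0 in all libraries and 23 mitochondrial antisense rows with 3077 counts.

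Circles, and counts summed per opposite gene together with own-strand genes, were tested with edgeR 4.0.16 in R 4.3.3 (quasi-likelihood test, default dispersion, TMM, at least 10 counts over the libraries, Benjamini-Hochberg over all features), with DESeq2 1.42.0 and other scalings, filters and left-out libraries as alternatives. Values per library were compared by exact permutation. Equal depth used the expected number of circles at 282737 counts. The members, lists and rules were chosen with earlier results of these data known. Named were the 10 circles and 10 loci with the most counts, the 5 loci with the most circles, and up to 5 in each direction past the adjusted p (or by smallest p where none passed), with up to 4 genes of each list. Nothing beyond the labels says that the libraries of a group came from separate cultures, so p-values may measure technical spread.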

Additional observations from a re-analysis of the deposited data

How the results depend on the processing

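With 2 libraries a group, rare circles and amplified reads without molecular identifiers, counts set the limits here: 3 counts in a library are 0.539 to 1.06 per 100000. The number of antisense circles called by edgeR was 0, and it was 12 with DESeq2, 10 without a count filter, 20 where 2 libraries had to hold 5 or more, 64 with the replicate block, and 0 to 372 with a library left out (166 without control replicate 1, 372 without control replicate 2). The number of antisense loci called was 5, and it was 2 with library-size scaling, 3 with DESeq2, 0 with the newer dispersion method, 28 without a filter, 11 where 2 libraries had to hold 5 or more, 19 with the replicate block, 3 with the knockdown libraries summed (chosen after seeing the data), 3 with the first gene named, and 0 to 496 with a library left out. The fewer calls under the newer dispersion method and the cause of the other shifts were not tested. Some settings call much of the whole table. DESeq2 called 10.5% of circles of all types. Without control replicate 1 and without control replicate 2, 20% and 33.8% of all locus features were called. Where no share of all features is given here or above, the number called says nothing particular to antisense circles. DESeq2 gave no adjusted p for SERBP1, WDR26 and AMD1.

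Same-numbered libraries did not deviate together (r = 0.0073 over tested circles, 0.072 over tested antisense circles, 0.027 over locus features). The knockdown libraries differed little from each other, which leaves little to deviate, so these values cannot decide whether the numbers pair the samples. The difference in median antisense length was -9.5 nt, 52.8 nt with circles weighted equally, and -136 to 117 nt with a library left out. The difference in the share of circles at equal depth was -3.32 to 0.27 points with a library left out. Log2 differences of named items that turned sign were -0.26 (CD44), -0.24 (CD24) and -0.38 (EFNA5) with library-size scaling and -0.018 (EFNA5) without a filter. With a library left out they ran from -0.91 to 0.13 (the CD24 circle), -0.15 to 0.44 (CD24), -0.86 to 0.76 (NEAT1), -0.064 to 1.17 (NCOA7), -2.76 to 0.33 (QSER1) and -0.028 to 0.11 (EFNA5), turning without control replicate 1 for NEAT1, QSER1 and the CD24 circle and without knockdown replicate 2 for the others. None of these had passed the threshold.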

Other observations

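Other antisense loci with many counts were opposite NCOA7, which encodes an oxidation resistance protein, and QSER1. NCOA7 had 27 antisense circles with control counts of 36 and 41 and knockdown counts of 16 and 52, and its antisense counts were 74.0 per 100 of its own strand, against 4.16 over all genes. QSER1 had 24 antisense circles with control counts of 111 and 11 and knockdown counts of 5 and 10, beside 15018 counts on its own strand. CD24 was the reverse, with 198 antisense and 128 own-strand counts. Antisense circles lay on every chromosome from 1 to 22 and on X, with 2606 on chromosome 1 (12.9%, against 11.8% of other circles) and 1595 on chromosome 6 (7.91%, against 6.62%).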
